A study of Mus musculus with 4 samples.

Results

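Peroxisomes are small organelles that shorten very-long-chain and branched fatty acids, make the first bonds of ether lipids and break down hydrogen peroxide. Proteins called peroxins build them: some place membrane proteins, some carry enzymes across the membrane, and some drive division. Alveolar macrophages live in the airspaces of the lung, where they take up and degrade the lipids of lung surfactant. PPARγ, encoded by Pparg, is a lipid-sensing transcription factor of these cells. Related receptors of its family are known as inducers of peroxisomal enzyme genes, above all in liver. Described here are 34 genes of peroxisome assembly and peroxisomal lipid metabolism, given as a fixed list of symbols. The list was chosen with earlier results of these data known, so its counts beside those of all genes only describe it. Of these, 33 had a probe set that carried their symbol alone, among 18782 genes in all. The exception was Acot8, a thioesterase gene whose probe sets are shared with Snx21.

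The arrays came from adult mice on a C57BL/6 background in 2 groups. WT mice carried floxed Pparg alleles (PPARg fl/fl) and no Cre, so the controls also bear the floxed locus. KO mice carried the same alleles with a CD11c-Cre transgene (CD11cCre/PPARg fl/fl), and the CD11c promoter is also active in dendritic cells. Each group had 2 biological replicates, each a pool of sorted cells from 2 mice hybridised to 1 Affymetrix array, so variation between single animals was not measured. WT cells were described by the submitters as mature alveolar macrophages and sorted as low for CD11b, whereas KO cells were described as arrested and immature and sorted as high for CD11b, and effects of the genotype and of this gate cannot be told apart.

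All values are log2 expression after RMA, which gave every array a median of 3.14, and levels of different probe sets are not comparable with each other. The arrays of 1 genotype correlated with r = 0.995 (WT) and 0.996 (KO), against 0.967 to 0.975 between genotypes. Pparg itself read 9.69 and 9.75 in WT and 9.59 and 9.73 in KO. Where its probes lie against the floxed exons was not determined, so this gene does not check the labels. Of 13 alveolar macrophage markers, 6 were lower and 1 higher in KO, with a median difference of -2.59 and a range from -6.19 (Krt79) to 0.83 (Ctsk). Their summed level was 13.50 to 13.65 in WT and 13.11 to 13.15 in KO, a sum in which bright markers such as Chil3 and Plet1, with differences of 0.04 and -0.04, weigh most. For interstitial macrophages, 8 of 11 markers were higher and 1 was lower, with summed levels of 10.77 to 10.85 in WT and 12.22 to 12.27 in KO. Of 10 markers of alveolar epithelium type 2, cells rich in peroxisomes, Lyz1 and Etv5 were higher and 0 were lower by limma (3 and 1 at an unadjusted p under 0.05), with a median difference of -0.01. The summed level of that list was 7.89 to 7.94 in WT and 8.61 to 8.72 in KO, with Lyz1 at 6.16 and 6.03 in WT and 7.82 and 7.62 in KO. In that list Sftpd, Lamp3 and Nkx2-1 lay below the array median on every array, and the surfactant gene Sftpc read 4.27 and 2.99 in WT and 3.64 and 3.22 in KO. Monocyte markers were higher in 6 and lower in 1 of 8 genes, and markers of neutrophils and of dendritic cells were higher in 1 and lower in 1 gene each. Of the eosinophil markers Rnase2a was higher, and markers of airway epithelium, lymphocytes, endothelium and fibroblasts held 0 genes past the test by limma, with 1 lymphocyte marker higher and 1 endothelial or fibroblast marker lower at an unadjusted p under 0.05. The part of these cell type markers in the results that follow was not tested. In sorted bulk samples, fewer cells of a type and less RNA per cell cannot be told apart.

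Upstream sequences are shown for 4 genes. Acaa1a and Acaa1b are paralogous thiolase genes, one of which had the largest decrease of the list. Acot4 and Cat are the only 2 members with an inexact match to a PPAR-type element here. The sequences are the 250 bases before the gene start from RefSeq (build GRCm38.p6), 5′ to 3′ on the gene's strand, and capitals mark a match to the element. The element searched was AGGTCANAGGTCA, the direct repeat bound by PPAR with RXR, on both strands with at most 2 mismatches in its 12 defined bases.
Acaa1a, chr9:119341044-119341293, plus strand: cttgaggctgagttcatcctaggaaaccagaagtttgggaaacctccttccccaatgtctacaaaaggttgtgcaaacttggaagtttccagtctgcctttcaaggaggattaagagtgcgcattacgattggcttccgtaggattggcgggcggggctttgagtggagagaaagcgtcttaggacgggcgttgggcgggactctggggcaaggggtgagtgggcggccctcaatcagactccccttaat
Acaa1b, chr9:119157094-119157343, minus strand: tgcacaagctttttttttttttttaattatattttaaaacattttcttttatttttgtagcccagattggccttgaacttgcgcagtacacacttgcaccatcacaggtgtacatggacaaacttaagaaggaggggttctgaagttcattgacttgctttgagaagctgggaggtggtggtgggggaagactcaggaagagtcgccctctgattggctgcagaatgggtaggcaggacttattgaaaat
Acot4, chr12:84038129-84038378, plus strand: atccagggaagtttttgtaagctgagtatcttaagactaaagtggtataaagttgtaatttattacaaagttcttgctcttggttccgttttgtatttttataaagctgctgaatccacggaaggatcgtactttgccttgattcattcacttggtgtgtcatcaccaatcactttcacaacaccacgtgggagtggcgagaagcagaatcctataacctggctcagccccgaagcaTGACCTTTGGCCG
Cat, chr2:103485154-103485403, minus strand: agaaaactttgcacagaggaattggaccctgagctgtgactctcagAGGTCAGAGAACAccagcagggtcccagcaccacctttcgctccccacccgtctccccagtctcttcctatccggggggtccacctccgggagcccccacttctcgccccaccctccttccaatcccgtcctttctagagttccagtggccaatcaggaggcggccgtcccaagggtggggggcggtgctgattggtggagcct

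Of the 34 members, 29 had such a window in the RefSeq table, some with more than 1 start, which gave 33 windows. A match was found in 2 of these, against 3.24% of all 32851 windows of the same length. In Acot4 the match lay on the minus strand at bases -13 to -1 from the start, and in Cat on the plus strand at -204 to -192. The single repeat AGGTCA, which also forms part of these matches, occurred on either strand in 4 member windows, against 14.0% of all windows. Each of these 2 matches to the whole element had 2 mismatches, the most allowed. Of the 13 genes with a window that were lower in KO, 1 held such an inexact match, namely Acot4. Neither thiolase window held a match, which says only that these letters are absent from these 250 bases.

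All 6 listed core genes of the peroxisomal beta-oxidation spiral were lower in KO macrophages, against 6.86% of all genes. Of 13 peroxin genes, 3 were lower and 10 did not pass the test, where 16102 of all 18782 genes did not pass. Across the 33 measured genes, 15 were lower in KO (limma, adjusted p under 0.05 over all genes), where 6.86% of all 18782 genes were lower. Amacr was the 1 gene called higher, against 7.41% of all genes. In either direction 16 members were called, against 14.3% of all genes, and 17 did not pass the test. The median difference, KO minus WT, was -0.36 on the log2 scale for the members and -0.01 over all genes. Both KO arrays lay below both WT arrays in 20 of the 33 genes, against 30.0% of all genes, and above them in 3, against 25.3%. All 33 had a group mean above the array median in at least 1 genotype, as did 10348 of all 18782 genes. Dim genes, those under the array median in both genotypes, thus enter the shares of all genes but not the list. With dim genes left out of the fit, 15 members were lower and 2 higher. Over all genes kept in that fit, 1504 were lower and 1509 higher. These are more calls among fewer genes than in the full fit. The shares to set beside the members are thus larger there than 6.86% and 7.41%. Leaving out WT replicate 1 gave 9 lower members (4.31% of all genes were lower in that fit), and leaving out WT replicate 2 gave 12 (5.63%). Without KO replicate 1 and without KO replicate 2 there were 7 each time (3.49% and 3.44% of all genes). Centring the arrays on 11 reference genes gave 11 lower and 2 higher members, and over all genes 975 lower and 1929 higher in place of 1289 and 1391. Hprt, 1 of these 11, was itself lower in KO (-0.77 ± 0.13, limma adjusted p = 0.0141), and the mean difference of the reference genes was -0.11 with it and -0.04 without it. Centred on the other 10, a choice made after seeing the data, the members gave 12 lower and 1 higher, and all genes 1171 and 1577.

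**Figure D1:**
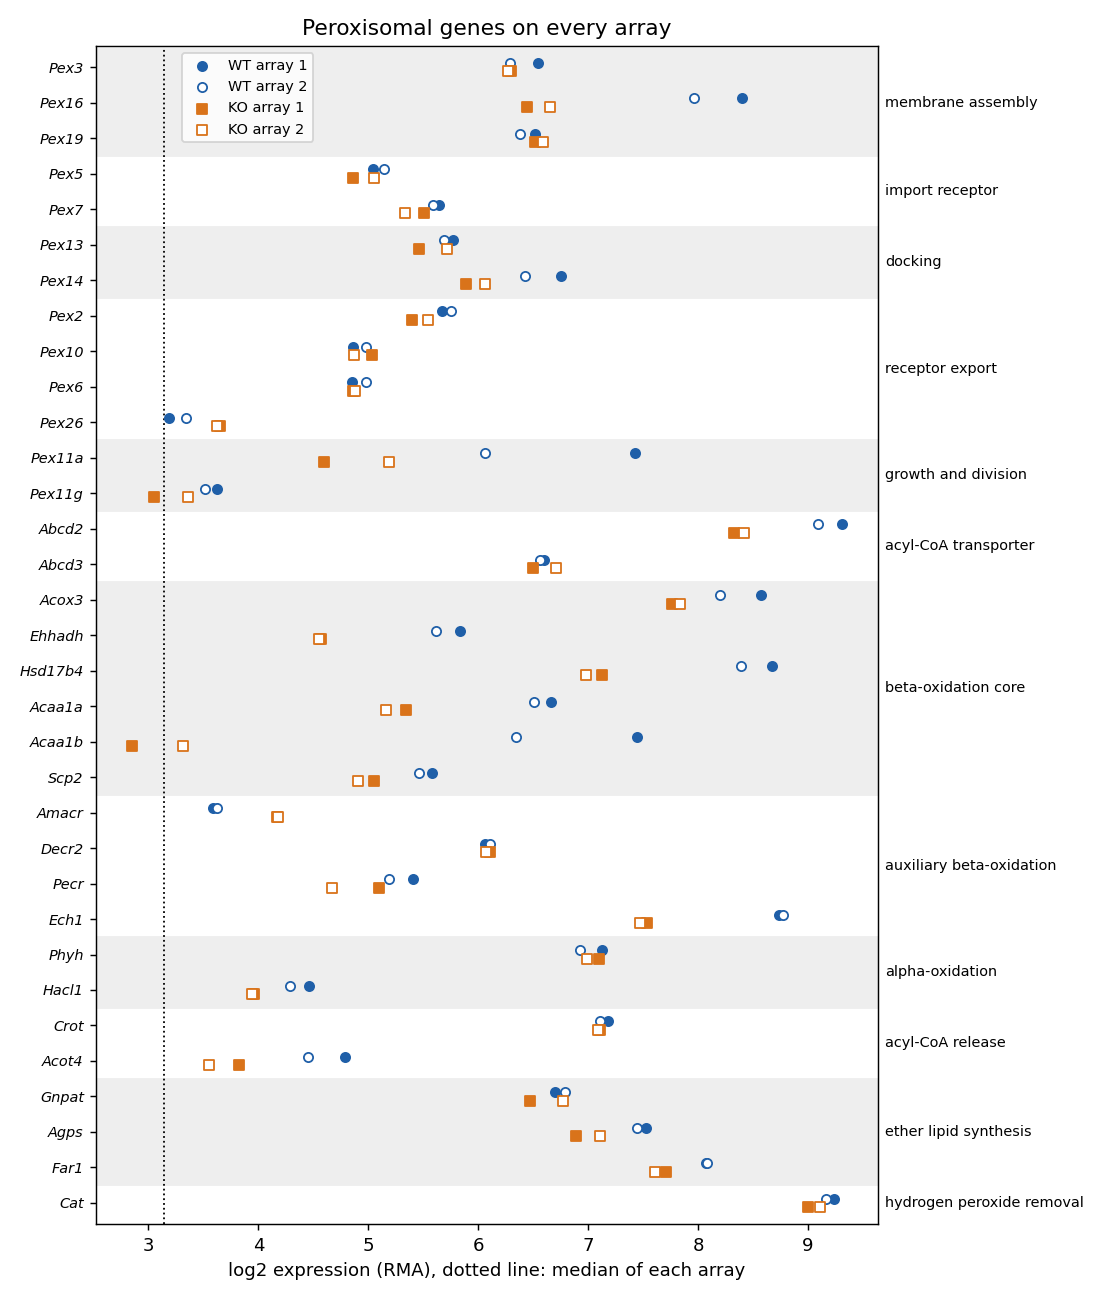
Log2 expression of each peroxisomal gene (rows, grouped by role) on the WT arrays (blue circles) and KO arrays (orange squares), with array 1 filled and array 2 open. The KO squares of all 6 beta-oxidation core genes lie left of both WT circles, and positions in different rows are not comparable.

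The core of beta-oxidation was lower at every step on the list, with all 6 genes past the test and a median difference of -1.25. Acaa1b, one of a pair of genes for the thiolase that releases acetyl-CoA in the last step, read 7.44 and 6.34 in WT and 2.85 and 3.31 in KO. Its KO arrays straddled the array median, and the difference was -3.81 ± 0.35 (SE; limma adjusted p = 0.00126). With the KO array under the array median raised to it, the estimate was 12.7-fold lower. This is no lower bound, since the interval of the difference as measured ran from -4.66 to -2.95 (95%, limma). Acaa1a, the other copy, read 6.66 and 6.51 in WT and 5.34 and 5.16 in KO, a difference of -1.33 ± 0.12 (adjusted p = 0.00103). Both KO arrays were thus well below both WT arrays in each copy, and Acaa1a kept a level of 5.25 ± 0.13 (SD, n = 2) above the array median. The copies are close in sequence, and which of their transcripts each probe set reads (10597592 for Acaa1b, 10590137 for Acaa1a) was not tested. In the RefSeq annotation they lie on the same chromosome with 4 protein-coding genes between them.

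Hsd17b4 and Ehhadh encode the D- and L-bifunctional enzymes, which hydrate and dehydrogenate the fatty acyl chain. Hsd17b4 read 8.67 and 8.39 in WT and 7.13 and 6.98 in KO, 2.78-fold lower (-1.47 ± 0.13, limma adjusted p = 0.00114). Ehhadh read 5.83 and 5.62 in WT and 4.57 and 4.55 in KO, 2.25-fold lower (-1.17 ± 0.11, adjusted p = 0.00133). For both enzymes the gap between genotypes was several times that between arrays of a genotype. Each remained past the test when any 1 array was left out, as did Acaa1a, Acaa1b, Ech1 and Pex16, the 6 members of the 16 called for which this held.

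Acox3 and Scp2 had the smallest decreases of the core. Acox3, an oxidase that opens the spiral for branched acyl chains, read 8.57 and 8.20 in WT and 7.76 and 7.84 in KO (-0.59 ± 0.14, limma adjusted p = 0.0433). A dimmer Acox3 probe set, 10529480, read 3.04 and 3.28 in WT and 3.07 and 3.05 in KO, near the array median in both groups. Scp2, whose gene yields a thiolase for branched chains and sterol carrier protein, read 5.58 and 5.46 in WT and 5.05 and 4.91 in KO (-0.54 ± 0.11, adjusted p = 0.0223). Groups did not overlap in either gene, yet both passed in only 1 of the 4 fits with an array left out, that without WT replicate 2. Their adjusted p in the other fits reached 0.193 for Acox3 and 0.122 for Scp2. Taken as the mean over both probe sets, the Acox3 difference was -0.34 and did not pass (adjusted p = 0.0643). It also missed the threshold over all annotated probe sets (0.0562) and centred on the 11 reference genes (0.059), but not on the 10 other than Hprt (0.0456).

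Auxiliary enzymes, which prepare unsaturated or branched chains for the spiral, went different ways. Ech1, a dienoyl-CoA isomerase found in peroxisomes and mitochondria, read 8.74 and 8.77 in WT and 7.54 and 7.47 in KO. Its difference of -1.25 ± 0.10 had the smallest p among the members (limma adjusted p = 6.73e-04). Amacr, the racemase that turns branched acyl-CoA into the form that can be oxidised, read 3.59 and 3.62 in WT and 4.17 and 4.18 in KO. It was higher by 0.57 ± 0.09 (adjusted p = 0.0111), at levels near the array median, and passed only without WT replicate 2 when 1 array was left out, with adjusted p up to 0.0683 in the other fits. Neither reductase gene passed the test: Decr2 differed by 0.00 ± 0.09, and Pecr by -0.41 ± 0.16 (adjusted p = 0.176), with both of its KO arrays (5.10 and 4.67) below those of WT (5.41 and 5.19). The interval of the Decr2 difference ran from -0.23 to 0.23 (95%, limma).

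**Figure D2:**
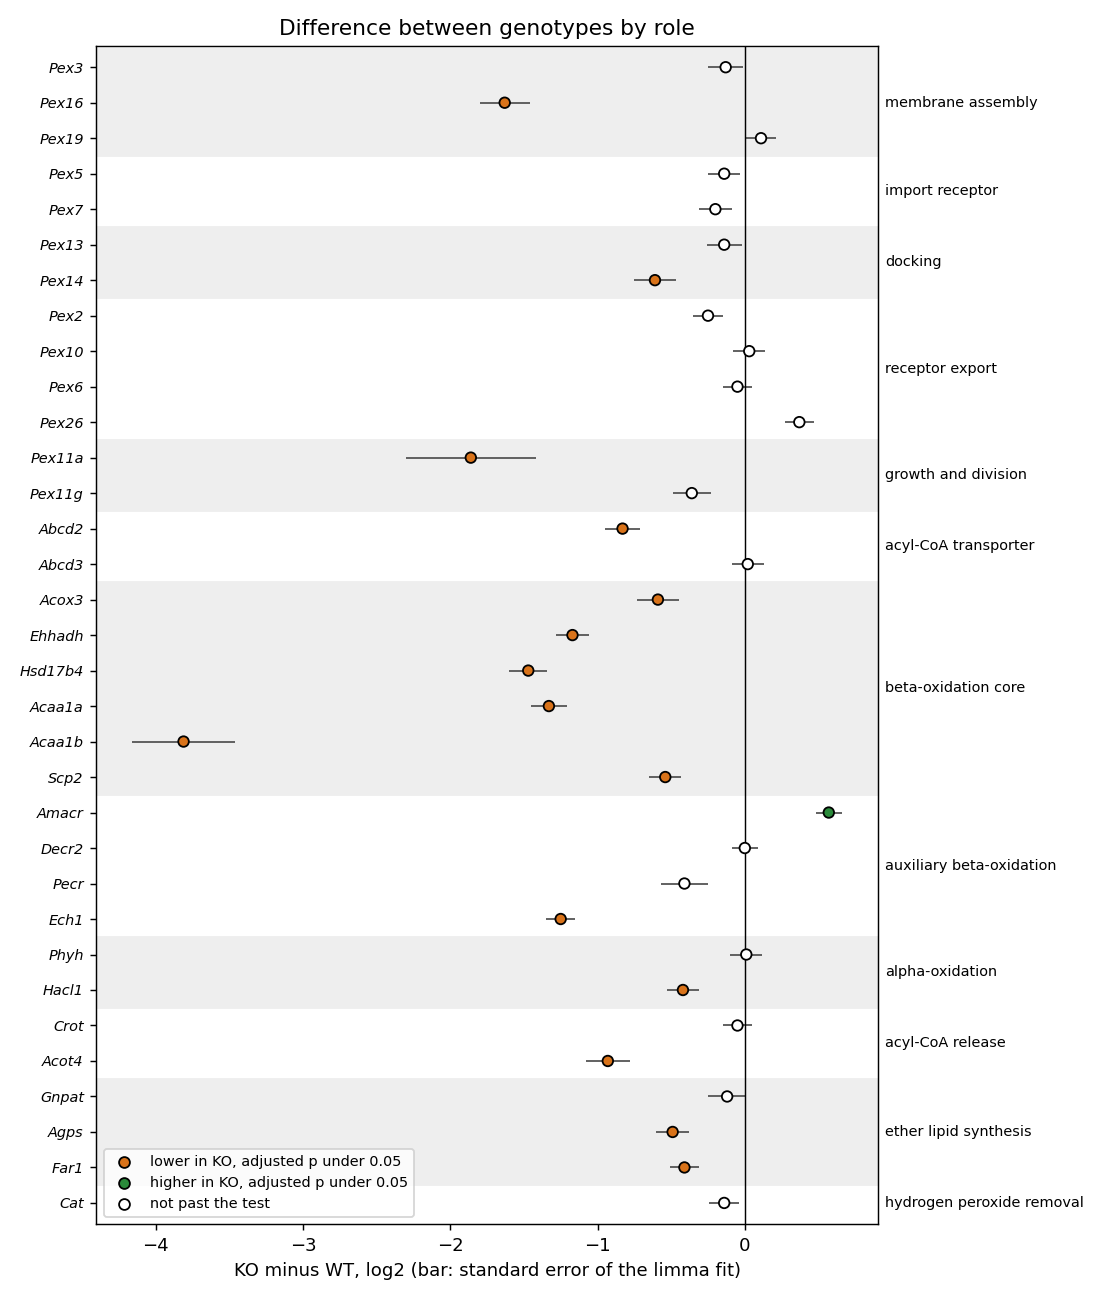
Difference between genotypes, KO minus WT on the log2 scale, for each peroxisomal gene grouped by role, with bars for the standard error of the limma fit (2 arrays per group). Orange points are lower and the green point is higher in KO at an adjusted p under 0.05, and white points did not pass.

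Alpha-oxidation removes single carbons from phytanic acid, a branched chain that beta-oxidation cannot start on. Phyh, the hydroxylase of its first step, read 7.13 and 6.93 in WT and 7.10 and 6.99 in KO, and the difference was 0.01 ± 0.11, with an interval from -0.26 to 0.29. Hacl1, the lyase that follows, read 4.46 and 4.29 in WT and 3.96 and 3.94 in KO (-0.42 ± 0.11, limma adjusted p = 0.0477). Its groups did not overlap, but it passed in none of the fits with 1 array left out, where adjusted p reached 0.201.

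Transporters and release enzymes move acyl chains into and out of the organelle. Abcd2, a membrane transporter of very-long-chain acyl-CoA, read 9.31 and 9.09 in WT and 8.33 and 8.42 in KO (-0.83 ± 0.12, limma adjusted p = 0.00595), and lost the call when KO replicate 1 was dropped (adjusted p = 0.0519). Abcd3, the transporter of long and branched chains also known as a general peroxisomal membrane marker, read 6.60 and 6.56 in WT and 6.50 and 6.71 in KO, with overlapping groups. Its difference was 0.02 ± 0.11 with an interval from -0.24 to 0.29. Of the release enzymes, Acot4, a thioesterase that splits short dicarboxylic acyl-CoA, read 4.79 and 4.45 in WT and 3.82 and 3.55 in KO (-0.93 ± 0.15, adjusted p = 0.0114), and did not pass when KO replicate 2 was dropped (adjusted p = 0.0763). Crot, which transfers medium chains to carnitine for export, read between 7.09 and 7.18 on all 4 arrays. The probe sets shared by Acot8 and Snx21 differed by 0.32 and -0.24, and neither can be given to 1 gene.

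Ether lipid synthesis begins in peroxisomes with Gnpat, Agps and Far1. Agps, which exchanges the acyl chain for an alkyl chain, read 7.53 and 7.44 in WT and 6.89 and 7.11 in KO (-0.49 ± 0.11, limma adjusted p = 0.0389). Far1, which makes the fatty alcohol used by Agps, read 8.07 and 8.08 in WT and 7.71 and 7.61 in KO (-0.41 ± 0.10, adjusted p = 0.0397). In both genes the groups were apart, and neither passed in any fit with 1 array left out, with adjusted p up to 0.177 for Agps and 0.179 for Far1. Gnpat, the acyltransferase of the first step, read 6.70 and 6.79 in WT and 6.47 and 6.77 in KO (-0.12 ± 0.13). Dhrs7b, the gene of the reductase that acts after Agps, is outside the list of 34 and fell by 1.84 on the log2 scale, from 8.95 and 8.03 in WT to 6.64 and 6.67 in KO (SE 0.28, adjusted p = 0.00789). It lost the call without either KO replicate (0.0645 and 0.06 in turn). Cat, the gene of catalase, the enzyme that breaks down hydrogen peroxide, had means of 9.20 ± 0.06 in WT and 9.06 ± 0.08 in KO (SD, n = 2), with both KO arrays below both WT arrays and a difference of -0.14 ± 0.10 (adjusted p = 0.449).

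Of the peroxin genes, 3 of 13 were lower in KO and 0 were higher by limma (4 and 1 at an unadjusted p under 0.05), with a median difference of -0.14. Of all genes, 6.86% were lower and 7.41% higher, and 14.0% and 12.6% at an unadjusted p under 0.05. Of the 20 other members, 12 were lower and 1 higher, with a median of -0.45, and this contrast between peroxins and enzymes was not tested. Among the genes that seat proteins in the peroxisomal membrane, Pex16 read 8.40 and 7.96 in WT and 6.44 and 6.65 in KO, 3.1-fold lower (-1.63 ± 0.17, limma adjusted p = 0.00179). Its partners did not pass: Pex3, the membrane anchor, differed by -0.13 ± 0.12, and Pex19, the soluble chaperone of membrane proteins, by 0.11 ± 0.10. Their differences had intervals from -0.42 to 0.16 for Pex3 and from -0.14 to 0.36 for Pex19.

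Pex11a, which elongates the membrane before division and is known for its induction by peroxisome proliferators, read 7.43 and 6.06 in WT and 4.60 and 5.19 in KO. The WT arrays stood 1.37 apart, and the difference was -1.86 ± 0.44 (limma adjusted p = 0.0386). It moved from -2.54 without WT replicate 2 to -1.17 without WT replicate 1, and did not pass when either KO replicate was left out (adjusted p of 0.204 and 0.104). Pex11g, a relative of Pex11a, read 3.62 and 3.51 in WT and 3.05 and 3.36 in KO (-0.36 ± 0.13, adjusted p = 0.151), close to the array median. The fission genes shared with mitochondria, Fis1, Mff, Dnm1l and Gdap1, held 0 genes past limma's test in either direction, also at an unadjusted p under 0.05, with differences from -0.25 to 0.02.

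Import of enzymes starts with the receptors Pex5 and Pex7, which read the targeting signals. Their differences were -0.14 ± 0.11 and -0.20 ± 0.11, and neither passed. Of the docking pair at the membrane, Pex14 read 6.75 and 6.43 in WT and 5.89 and 6.06 in KO (-0.61 ± 0.14, limma adjusted p = 0.0345), whereas Pex13 differed by -0.14 ± 0.12. Pex14 passed only without WT replicate 2 when 1 array was left out, with adjusted p up to 0.177 in the other fits. The 4 genes that recycle the receptors were not past the test. They are Pex2 (-0.25 ± 0.10) and Pex10 (0.03 ± 0.11), of the ubiquitin ligase, Pex6 (-0.05 ± 0.10), of the motor that extracts the receptor, and Pex26 (0.37 ± 0.10, adjusted p = 0.0676), the motor's anchor. Pex26 read 3.19 and 3.34 in WT and 3.65 and 3.62 in KO, and it passed with dim genes left out (adjusted p = 0.0441) and when arrays were centred on the 11 reference genes (adjusted p = 0.0341), but not on the 10 other than Hprt (adjusted p = 0.0524). Over the 17 members not past the test, differences ran from -0.41 to 0.37, and their intervals reached from -0.81 to 0.62.

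**Figure D3:**
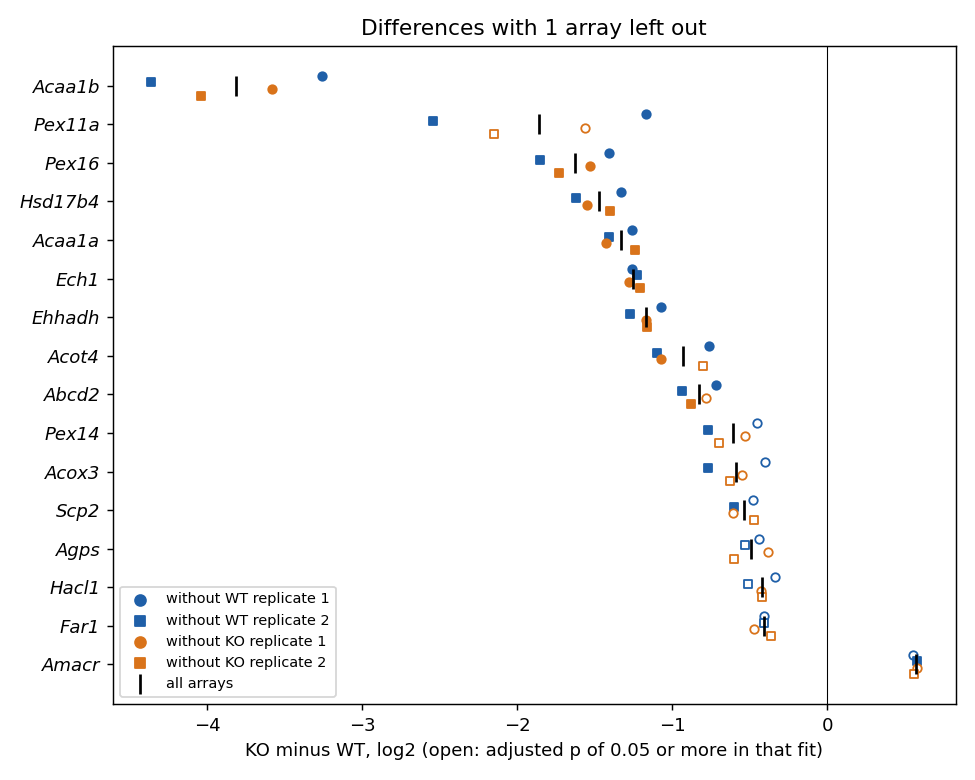
Differences of the 16 called genes, KO minus WT on the log2 scale, over all arrays (black bars) and with each array left out in turn (coloured points, open where the adjusted p of that fit was 0.05 or more). Acaa1b, Pex16, Hsd17b4, Acaa1a, Ech1 and Ehhadh have filled points in all 4 fits.

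A second list held 52 further peroxisomal genes, of which 42 were measured. Of these, 6 were lower in KO (6.86% of all genes), 2 were higher (7.41% of all genes) and 34 did not pass, with a median difference of -0.05. The lower genes, beside Dhrs7b, were Idh1, an NADPH-producing dehydrogenase also found in the cytosol (-0.72 ± 0.10, limma adjusted p = 0.00478), and Pxmp4, of a membrane protein (-0.82 ± 0.12, adjusted p = 0.00788). They also included Tysnd1, the protease that trims imported enzymes (-0.58 ± 0.11), Acbd5, an acyl-CoA-binding tether (-0.57 ± 0.14), and Eci2, an enoyl-CoA isomerase (-0.52 ± 0.12). The higher genes were Acsl4, an acyl-CoA synthetase not confined to peroxisomes (0.54 ± 0.10), and Nudt7, a coenzyme A hydrolase (0.50 ± 0.12). Tysnd1, Acbd5, Eci2, Acsl4 and Nudt7 had adjusted p between 0.0147 and 0.0394, and some were chosen for naming after their values were seen. Pxmp4 lost the call without KO replicate 1, where its difference was -0.70. When 1 array was left out, Tysnd1, Acbd5, Eci2 and Acsl4 passed only without WT replicate 2, and Nudt7 passed in none of the 4 fits (adjusted p from 0.0716 to 0.182). Without KO replicate 1 the counts in this list were 1 lower and 0 higher, where 3.49% of all genes were lower and 3.87% higher. Among the 42, 23 had a group mean above the array median, and the other 19 were at or below it in both genotypes.

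In mitochondria, which oxidise shorter chains by parallel enzymes, 9 of 19 measured beta-oxidation genes were lower and 0 higher by limma (11 and 0 at an unadjusted p under 0.05), with a median of -0.43. The shares of all genes were 6.86% lower and 7.41% higher, and 14.0% and 12.6% at an unadjusted p under 0.05. Differences there ran from -0.97 to 0.20. Those of the 33 peroxisomal genes, with a median of -0.36, ran from -3.81 to 0.57. Acaa1b alone set that low end, and Pex11a came next at -1.86. Of the mitochondrial genes, Acads (-0.96 ± 0.10), Etfb (-0.77 ± 0.10), Cpt2 (-0.97 ± 0.13) and Hadha (-0.71 ± 0.10) had the smallest p. Of 9 genes of the PPAR family and its partners, Ppard, encoding a related receptor, was higher (0.53 ± 0.10, limma adjusted p = 0.0167), and the corepressor gene Nrip1 was lower (-0.81 ± 0.11, adjusted p = 0.00634). Ppara, the receptor gene best known for driving peroxisomal oxidation in liver, read 2.04 and 2.04 in WT and 2.33 and 2.29 in KO, below the array median. Ppard lost the call without either KO replicate and without WT replicate 2, with adjusted p from 0.0675 to 0.0931.

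**Figure D4:**
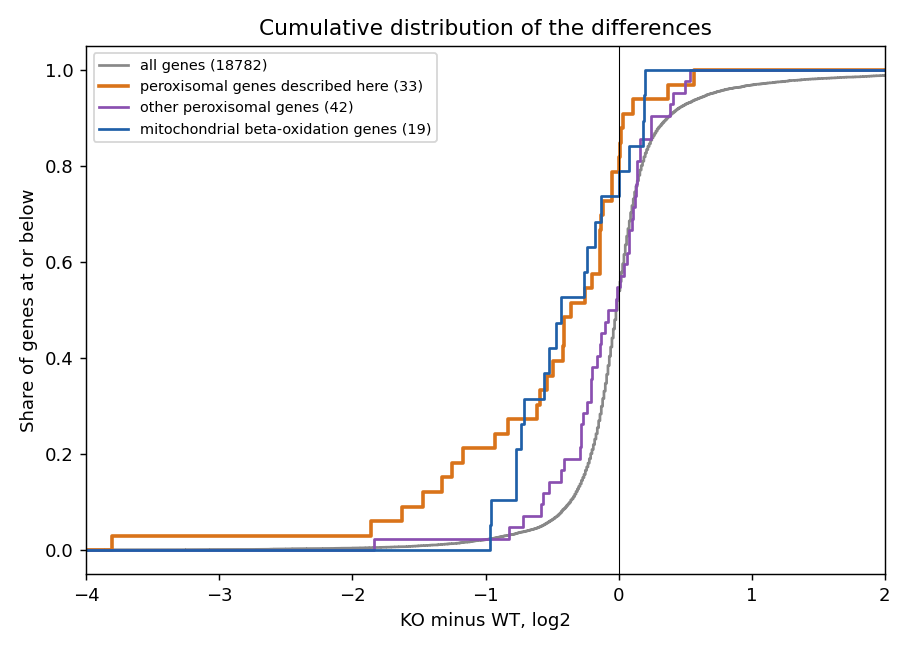
Cumulative share of genes (vertical axis) at or below a given difference, KO minus WT on the log2 scale, for the 33 peroxisomal genes, 42 other peroxisomal genes, 19 mitochondrial beta-oxidation genes and all 18782 genes. The medians are -0.36, -0.05, -0.43 and -0.01 in that order, and a few genes beyond the axis limits are not drawn.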

How the data were processed

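Labelled RNA of 4 pools of sorted alveolar macrophages (2 WT, 2 KO) was hybridised to Affymetrix arrays. The deposited values are log2 expression per probe set, which the authors made with RMA under R 2.15.2, according to the submitters' processing notes. For RMA settings and genome build the entry is: not given in the sources used here. RMA equalises the distributions of the arrays, so a shift of most transcripts would not be seen, and it compresses low values. Of 28371 probe sets, 21158 had 1 gene symbol in the platform annotation, 1881 had several and 5332 had none listed. Per gene, the probe set with that symbol alone and the highest mean was taken, which left 18782 genes with no filter.

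KO was compared with WT by limma 3.58.1 in R 4.3.3 (group as the only term, empirical Bayes, two-sided, 2 residual and 4.16 prior degrees of freedom). Adjustment was by Benjamini-Hochberg over all genes, called under 0.05. Errors are model SE, or SD over arrays where stated, and the number of arrays limits the precision. Summed marker levels are the log2 of summed linear values. The procedure was tested on simulated data. The members and lists were chosen with earlier results of these data known. Named were members past the test with every array, other members by role, and genes of smallest p in the other lists. Alternatives left out each array, added the replicate number as a block, and changed the variance model, filter, probe set choice, scaling and threshold, and 1 scaling without Hprt was added after seeing the data. The labels number the replicates but name no pairing of the arrays. Deviations of same-numbered arrays correlated with r = -0.017 across genes. Whether same-numbered arrays were handled together was not tested.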

Additional observations from a re-analysis of the deposited data

How the results depend on the processing

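With 1 array left out, 7 to 12 members were lower and 0 to 1 higher, with a median from -0.41 to -0.29. The other peroxisomal genes then gave 1 to 7 lower and 0 to 1 higher, the mitochondrial genes 6 to 7 lower, and all genes 647 to 1057 lower and 726 to 1227 higher. In these fits the lone array of a group is assumed to vary like the other group.

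Without moderation of the variance 0 genes of any list were called, with 3635 genes at an unadjusted p under 0.05 (5006 with limma), and 10 members lower at that level (17 with limma). Tested against a difference of 0.5, 6 members were lower and 0 higher, as were 1 and 0 other peroxisomal genes, 1 mitochondrial gene, and 336 lower and 498 higher over all genes. With dim genes left out, 1504 of all genes kept were lower and 1509 higher, and 15 members were lower. In that fit 2 members and 4 other peroxisomal genes were higher. Scaled on reference genes, these counts were also 2 and 4, the member median was -0.25, and the median of all genes moved from -0.01 to 0.09. Scaled on the 10 reference genes other than Hprt, an alternative chosen after seeing the data, it moved to 0.03, the member median was -0.31, and 4 other peroxisomal genes were higher. Hacl1, Agps and Far1 then lost the call.

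The replicate block called 10 members lower and 1 higher, and over all genes 1168 lower and 1309 higher. It called 1 other peroxisomal gene higher, and Pex14, Acox3, Hacl1, Agps and Far1 lost the call. The arrays share only a number, so this is no pairing by design.

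Members and Pparg that did not pass changed sign as follows. With 1 array left out, the differences ran from -0.26 to 0.00 (Pex3), -0.05 to 0.11 (Pex10), -0.11 to 0.02 (Pex6), -0.08 to 0.12 (Abcd3), -0.02 to 0.03 (Decr2), -0.09 to 0.11 (Phyh), -0.27 to 0.02 (Gnpat) and -0.12 to 0.01 (Pparg). Scaled on reference genes they were 0.06 for Pex6, 0.06 for Crot and 0.05 for Pparg. The causes were not tested.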

Other observations

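The WT arrays stood apart from each other in several lowered genes. Among the 15 members lower in KO, WT array 1 lay above WT array 2 in 13, including all 6 genes of the beta-oxidation core, where 50.2% of all genes and 10 of the 17 members not past the test did so. The widest gaps were 1.37 for Pex11a and 1.10 for Acaa1b, larger than in all but 0.202% and 0.442% of genes, and only 104 of 18782 genes had a WT gap over 1, with WT array 1 the higher in 51 and WT array 2 in 53. Of the 13 alveolar macrophage markers, 8 had WT array 1 above WT array 2 and the others did not. The gap was over 1 in 3 of the 13, Marco (7.22 and 4.43), Fabp4 (7.57 and 5.21) and Krt79 (10.18 and 8.48). WT array 1 was also the higher by over 1 in the airway marker Scgb1a1 (6.89 and 4.26) and the type 2 epithelium marker Sftpc (4.27 and 2.99). The same held for the monocyte marker Treml4 (7.65 and 6.62). WT array 2 was the higher by over 1 in Ccr2, C1qb and Clec9a, markers of monocytes, interstitial macrophages and dendritic cells. The part of these markers in the gaps of the peroxisomal genes was not tested. Pex11a and Acaa1b were also apart in KO, by 0.59 and 0.46, with KO array 2 above KO array 1. These gaps are a description of 2 arrays, each a pool of 2 mice, and carry no test. Ech1, whose difference between genotypes was among the firmest, had a WT gap of 0.03, so a wide gap was not shared by every lowered gene.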
